A study of Homo sapiens with 4 samples.

Results

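HSP90 is an ATP-driven chaperone that folds and stabilizes kinases, steroid receptors and other client proteins, and cochaperones set the order and speed of its cycle. The genes described here were chosen by name, as the 4 HSP90 chaperones (HSP90AA1, HSP90AB1, HSP90B1 and TRAP1) and 6 of their cochaperones (AHSA1, CDC37, STIP1, PTGES3, FKBP4 and CHORDC1). Of these 10 genes, 7 had a probe set in the array's gene table, out of 17687 named genes in all. The other 3, HSP90B1, AHSA1 and CDC37, had no named probe set and their signals were not analysed here, so that the ER paralog of HSP90, its ATPase activator and its kinase-loading cochaperone have no expression value below. Each of the 7 measured genes had 1 named probe set.

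The samples were 786-O cells (CRL-1932 in the labels), an established human clear cell renal carcinoma line that lacks functional VHL. RNA from 2 untreated cultures and from 2 cultures given 5 ng/mL of the chemokine MCP-1 for 16 h, all grown in the same serum-containing medium and with no other agent, was hybridized to 4 Clariom S arrays. The paper's methods give a longer treatment than the labels and describe duplicate dishes of this single line. The p-values therefore rest on spread between these dishes, which limma takes largely from all probe sets and less from the gene itself. The comparison asks which transcripts differ in MCP-1-treated cells, a question the study raised with regard to protein folding.

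Values are the log2 signals deposited by the authors, on which a difference of 1 is a doubling. The medians of the arrays lay between 6.20 and 6.28, and pairs of arrays correlated at r from 0.9929 to 0.9951 over probe sets, which are not independent replicates. The background of the arrays was taken as the 90th percentile of their negative control probe sets. All 8 measured markers of kidney epithelium and renal carcinoma, such as PAX8 and KRT8, lay above it, at signals from 10.18 to 16.33. Of 9 markers of leukocytes and endothelium, CD68 alone was above it, and the leukocyte gene PTPRC, the monocyte gene CD14 and the endothelial gene PECAM1 were within the range of the negative controls. All 7 HSP90 genes lay well above this level, with signals from 12.28 to 15.76 against a background of 6.11 for the mean over arrays. Signals of different probe sets cannot be ranked against each other, so each gene is compared only with itself.

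In the cytosol HSP90 works as a dimer together with HSP70. STIP1 (HOP) bridges both chaperones, FKBP4 and related immunophilins bind through tetratricopeptide repeats (TPR), and PTGES3 (p23) holds the ATP-bound closed state. Genes of this machinery are classical targets of heat shock factor 1 (HSF1), which binds inverted repeats of the unit NGAAN, called heat shock elements, and HSP90 in turn restrains HSF1. TRAP1 is the mitochondrial HSP90, encoded in the nucleus.

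The promoters show which of these genes carry the letters of a heat shock element. The stretch of 250 bases before each annotated start was searched on both strands for 3 adjoining units, TTC and GAA in turn with any 2 bases (NN) between them, starting with either, and with overlapping matches counted. Of the 7 measured genes, 6 have an entry in the RefSeq promoter table (GRCh38.p14), and FKBP4 has none. A match was found for 3 of the 6, HSP90AA1, HSP90AB1 and CHORDC1, whereas 0.557% of the 27305 genes in the table have one. The promoters of HSP90B1, AHSA1 and CDC37, whose signals were not analysed here, were searched as well and had no match, which makes 3 of 9 genes of the group with an entry. STIP1, PTGES3 and TRAP1 had no match in this window, which says only that these letters are not there. The stretches that hold the matches are shown 5′ to 3′ in the direction of the gene, with the matched bases in capitals, because they set these 3 genes apart from the others in sequence. HSP90AA1 lies at chr14:102087090-102087162 (minus strand, 118 to 46 bases before the downstream one of its annotated starts), HSP90AB1 at chr6:44247748-44247873 (plus strand, 195 to 70 bases before the last of its annotated starts) and CHORDC1 at chr11:90223057-90223139 (minus strand, 90 to 8 bases before its start).
HSP90AA1: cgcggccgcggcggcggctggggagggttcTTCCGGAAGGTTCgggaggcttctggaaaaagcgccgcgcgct
HSP90AB1: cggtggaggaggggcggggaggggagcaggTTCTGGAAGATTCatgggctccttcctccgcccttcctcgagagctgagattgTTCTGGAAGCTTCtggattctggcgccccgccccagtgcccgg
CHORDC1: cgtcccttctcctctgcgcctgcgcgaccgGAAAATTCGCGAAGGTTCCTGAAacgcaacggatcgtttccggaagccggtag
HSP90AA1 has 1 match, HSP90AB1 has 2 that lie apart, and CHORDC1 has 3 that overlap into 1 unbroken array of units. A match is a description of sequence, and binding of HSF1 was not measured here.

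None of the 7 HSP90 genes passed the test across all probe sets between MCP-1-treated and untreated cells. Signals were highest relative to untreated cells for CHORDC1, 1.41-fold, followed by FKBP4 at 1.25-fold and STIP1 at 1.24-fold, and PTGES3 and TRAP1 were within 1.01-fold. In limma's fit with replicate number as a blocking term, no member passed an adjusted p of 0.05 (adjusted p = 1 for each of them), where 0.0326% of the 21448 tested probe sets passed. None passed an unadjusted p of 0.05 either, a level that 4.95% of probe sets reached. With a variance prior that follows the signal level, limma placed 3 members under this unadjusted level, CHORDC1 at 0.00379, STIP1 at 0.0342 and FKBP4 at 0.0444, and 1150 of the 21448 probe sets in all. None of the members passed after adjustment in that fit. The methods' t-test, which pairs the arrays by number, gave 1 member at its p threshold, CHORDC1 with p = 0.0472 (n = 2 pairs, not an exact test), and none after Benjamini-Hochberg adjustment. Across the array, 972 of the 21448 probe sets reached the same p threshold in that paired comparison. No member reached the fold of 2 that the methods ask for or the 1.5 in the series text. In limma's fit with the replicate block, 0.434% and 4.23% of probe sets passed these folds together with an unadjusted p under 0.05. With 2 arrays against 2, an exact two-sided permutation test of one gene cannot go below p = 0.333.

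**Figure D1:**
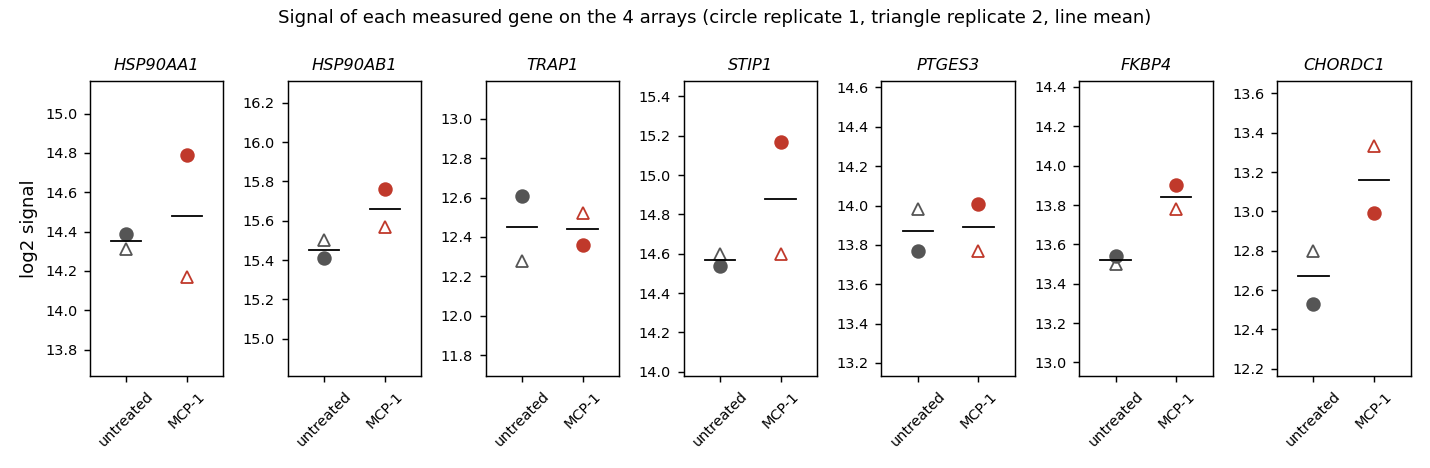
Log2 signal (vertical axis, each panel with its own level and the same span) of the 7 measured genes on the 2 untreated arrays (grey) and the 2 MCP-1-treated arrays (red), with circles for replicate 1, triangles for replicate 2 and lines for group means. The groups are separate for HSP90AB1, FKBP4 and CHORDC1 and overlap for the other 4 genes, and the treated arrays are farthest apart for HSP90AA1 and STIP1.

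Of the HSP90 chaperones themselves, HSP90AA1 encodes the stress-inducible cytosolic form. Its log2 signals were 14.39 and 14.31 on the untreated arrays and 14.79 and 14.17 on the MCP-1-treated arrays. The treated arrays were thus both the highest and the lowest of the 4, and the groups overlapped. The log2 fold change was 0.13 (standard error 0.26, adjusted p = 1 from limma), with a 95% interval from -0.44 to 0.69, which is 0.74-fold to 1.62-fold. Without MCP-1-treated replicate 1 the log2 fold change was -0.18, so its direction rests on that array. HSP90AB1, the constitutive cytosolic form, had signals of 15.41 and 15.50 in untreated and 15.76 and 15.57 in treated cells. Both treated arrays lay above both untreated ones, the second by less than the distance between the treated arrays. Its log2 fold change was 0.21 (standard error 0.25), with an interval of 0.79-fold to 1.69-fold. HSP90AA1 and HSP90AB1 are close paralogs with processed pseudogenes, and since probe sequences were not used here, cross-hybridization between them was not tested.

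TRAP1 had untreated signals of 12.61 and 12.28 and treated signals of 12.36 and 12.52. The treated arrays lay between the untreated ones. Its log2 fold change was 0.00 (standard error 0.25), with an interval from 0.68-fold to 1.47-fold, and its sign changed with the arrays left out.

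Among the cochaperones, CHORDC1 (CHP-1), a zinc-binding partner of HSP90 that is itself induced by heat, had the highest log2 fold change. Its untreated signals were 12.53 and 12.80, and its treated signals 12.99 and 13.33. Both treated arrays lay above both untreated ones. The differences of the replicate pairs were 0.46 and 0.53, but their likeness depends on pairing by replicate number. Nothing shows that arrays of one number belong together (deviations from the group means correlated at -0.0466 between them). The log2 fold change of 0.50 (standard error 0.24) stood at the 95.7th percentile of all tested probe sets. Its interval ran from -0.04 to 1.03 on the log2 scale, 0.97-fold to 2.05-fold, and limma's unadjusted p was 0.0672. This p was 0.0277 when probe sets below the median signal were left out and 0.00379 with a variance prior that follows the signal level, while the adjusted p stayed above the threshold, at 0.670 and 0.386.

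FKBP4 (FKBP52), an immunophilin that acts in the maturation of steroid receptors, had signals of 13.54 and 13.50 in untreated cells and 13.90 and 13.78 in treated cells. The replicates of each group lay close together (SD 0.03 and 0.08, n = 2 arrays each), and the groups did not overlap. Its log2 fold change was 0.32 (standard error 0.24), with an interval of 0.86-fold to 1.81-fold and pair differences of 0.36 and 0.29. The standard error is wider than these replicates alone would give because limma draws each probe set's variance toward that of all probe sets.

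STIP1, the bridge between HSP70 and HSP90, had signals of 14.54 and 14.60 in untreated cells and 15.17 and 14.60 in treated cells. Only treated replicate 1 stood above the untreated arrays. The log2 fold change of 0.31 (standard error 0.26, interval 0.83-fold to 1.85-fold) was 0.60 without MCP-1-treated replicate 2, but it was 0.03 when the first treated array was left out instead. PTGES3, the gene of p23, had signals of 13.77 and 13.98 in untreated and 14.01 and 13.77 in treated cells. The groups covered nearly the same range, with a log2 fold change of 0.02 (standard error 0.25) and an interval of 0.69-fold to 1.49-fold.

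**Figure D2:**
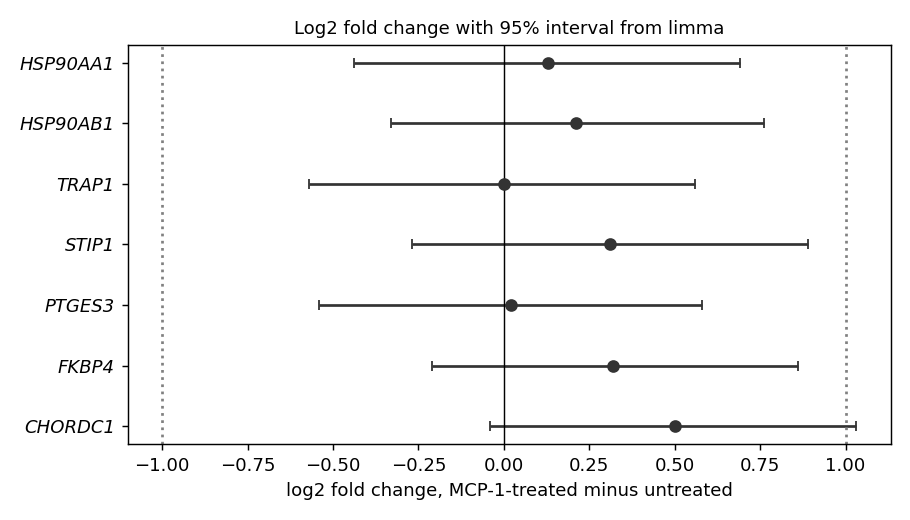
Log2 fold change of MCP-1-treated over untreated cells (horizontal axis) for the 7 measured genes, as points with 95% intervals from limma (n = 2 arrays per group). Dotted lines mark a 2-fold difference in either direction. Every interval includes 0, and only that of CHORDC1 reaches past 2-fold, at 2.05-fold.

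These intervals hold for single genes under 1 variance prior for all probe sets, on deposited signals whose processing can compress differences. With the prior that follows the signal level, the standard error of each member was smaller, 0.17 instead of 0.24 for CHORDC1. The intervals of CHORDC1, STIP1 and FKBP4 would then exclude 0, though no member passed after adjustment. The bounds below are those of the first prior. For 6 of the 7 genes the upper bound lay below a 2-fold increase, CHORDC1 being the exception, and for all 7 the lower bound lay above a 2-fold decrease. A 1.5-fold increase lay outside the interval for 2 genes, TRAP1 and PTGES3.

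The group as a whole lay slightly to the higher side. The treated mean was higher for 6 of the 7 genes, where it was higher for 52.3% of all tested probe sets, and the median log2 fold change was 0.21 against 0.01 over all tested probe sets. The groups did not overlap, with treated cells higher, for 3 genes (HSP90AB1, FKBP4 and CHORDC1), where 16.3% of tested probe sets showed this, and for no gene with treated cells lower. Separate groups of this kind are by definition also higher in both replicate pairs. No member besides these 3 was higher in both pairs, where 24.9% of probe sets were. The genes did not share 1 pattern across the arrays. MCP-1-treated replicate 1 gave the highest signal of the 4 arrays for 5 genes (HSP90AA1, HSP90AB1, STIP1, PTGES3 and FKBP4). The share of all probe sets that were highest on this array was not counted. It exceeded MCP-1-treated replicate 2 for the same 5 genes and for 42.3% of all tested probe sets. Of the other members, CHORDC1 was highest on treated replicate 2 and TRAP1 on untreated replicate 1. The median of the 7 genes was 0.36 in the replicate 1 pair and 0.07 in the replicate 2 pair, so the shift of the group came mostly from 1 pair. The cause of this difference between arrays was not tested.

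**Figure D3:**
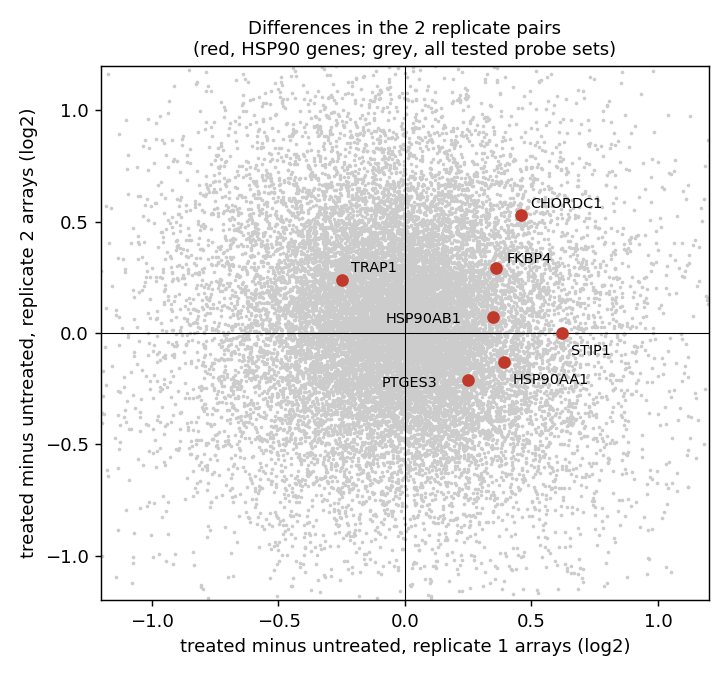
Difference between treated and untreated arrays of replicate number 1 (horizontal axis, log2) and of replicate number 2 (vertical axis, log2) for the 7 measured genes (red) and all tested probe sets (grey, within 1.2 of 0). CHORDC1, FKBP4 and HSP90AB1 lie above 0 in both pairs, and HSP90AA1, STIP1, PTGES3 and TRAP1 have opposite signs or a difference of about 0 in one of them.

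Replicate spread differed among the genes. The SD pooled over both groups was 0.061 for FKBP4 and 0.309 for HSP90AA1, with a median of 0.185 over the 7 genes and of 0.173 over all probe sets above background. For 3 genes, HSP90AB1, FKBP4 and CHORDC1, the difference between group means was larger than the difference between replicates of either group. This can hold only where the groups do not overlap. They were separate for 16.3% of tested probe sets with treated cells higher and for 15.2% with treated cells lower. The share of all probe sets with so large a difference was not counted.

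Set against the promoters shown above, the log2 fold changes of the genes with a heat shock element match were 0.13 for HSP90AA1, 0.21 for HSP90AB1 and 0.50 for CHORDC1. Those without a match were 0.31 for STIP1, 0.02 for PTGES3 and 0.00 for TRAP1. The ranges overlapped. Over the whole array, 74 tested genes had a match, with a median log2 fold change of 0.08 and quartiles of -0.03 and 0.19, and the 14176 genes with a promoter entry and no match had a median of 0.01 and quartiles of -0.14 and 0.17.

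Other genes of the HSP90 system gave no call. Of 10 measured TPR cochaperones outside the group described above, none passed the adjusted threshold, 8 had a higher treated mean, and their median log2 fold change was 0.13. FKBPL, an immunophilin-like TPR protein, had the highest at 0.72, with signals of 6.69 and 6.48 in untreated and 7.06 and 7.55 in treated cells (unadjusted p = 0.0202 and adjusted p = 0.96 from limma). Those signals lie little above the background, which was 6.70 on MCP-1-treated replicate 2. UNC45A, a myosin chaperone, was at 0.27, SGTA, which hands on tail-anchored proteins, at 0.21, and PPID (cyclophilin 40), an immunophilin like FKBP4, at 0.06 with signals of 12.56 and 12.56 in untreated and 12.64 and 12.60 in treated cells.
Of 13 measured cochaperones without these repeats, none passed, 8 had a higher treated mean, and the median was 0.06. PIH1D1, a subunit of the R2TP complex, had a log2 fold change of -0.37, which came from untreated replicate 1 at 7.06 beside 6.33, 6.30 and 6.35 on the other arrays. Those lower signals lie below the background of the same arrays, which was 6.365, 6.362 and 6.701. SUGT1, a partner of HSP90 at kinetochores and in innate immunity, was at 0.31, with treated replicate 2 at 10.19 and the other arrays between 9.55 and 9.66. NUDC, which acts with dynein, was at 0.20 with signals of 12.42 and 12.41 in untreated and 12.61 and 12.63 in treated cells, and ITGB1BP2 (melusin), the muscle paralog of CHORDC1, was within the range of the negative controls.

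Clients of HSP90 are regulated mainly as proteins, and their transcripts showed no common direction. Of 22 measured client genes none passed the adjusted threshold, the treated mean was higher for 11 and lower for 11, and the median log2 fold change was -0.01. HSF1, the heat shock factor held by HSP90, had signals of 12.48 and 12.17 in untreated and 12.09 and 11.90 in treated cells. Both treated arrays were below both untreated ones, as for 15.2% of tested probe sets, with a log2 fold change of -0.33 (standard error 0.24, adjusted p = 1 from limma). CHUK, a kinase of the NF-κB pathway, was at 0.39, with signals of 6.56 and 6.86 in untreated and 6.91 and 7.29 in treated cells. These lie little above the background, which was 6.70 on MCP-1-treated replicate 2. NR3C2, the mineralocorticoid receptor gene, was at 0.61 with both groups within the range of the negative controls, not well above background.

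The partners of the HSP90 paralogs in organelles gave different medians. In the ER, where HSP90B1 works in a complex with BiP, none of 9 measured members of that complex passed, the treated mean was higher for 5 and lower for 4, and the median was 0.01. HSPA5, the gene of BiP, was at -0.03, with signals of 15.18 and 15.26 in untreated and 15.35 and 15.03 in treated cells. DNAJB11, the J-domain partner of BiP, was at 0.24, the disulfide isomerase PDIA4 at -0.15 and the glycoprotein folding sensor UGGT1 at 0.10. No gene of this complex had groups that were separate in either direction, where 16.3% of tested probe sets were separate with treated cells higher and 15.2% with treated cells lower. In mitochondria, where TRAP1 works, none of 5 measured folding genes passed, all 5 had a higher treated mean (52.3% of all tested probe sets did), and the median was 0.33. HSPE1, the cochaperonin, had signals of 14.16 and 14.01 in untreated and 14.52 and 14.46 in treated cells (log2 fold change 0.40, standard error 0.24). GRPEL1, the nucleotide exchange factor of mitochondrial HSP70, was at 0.36 and PPIF (cyclophilin D), a TRAP1-binding isomerase, at 0.33. The groups were separate for 4 of the 5, all higher in treated cells, as were 16.3% of tested probe sets, and HSPA9, the mitochondrial HSP70 gene, overlapped at 0.02, as TRAP1 did. Differences between these lists were not tested.

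**Figure D4:**
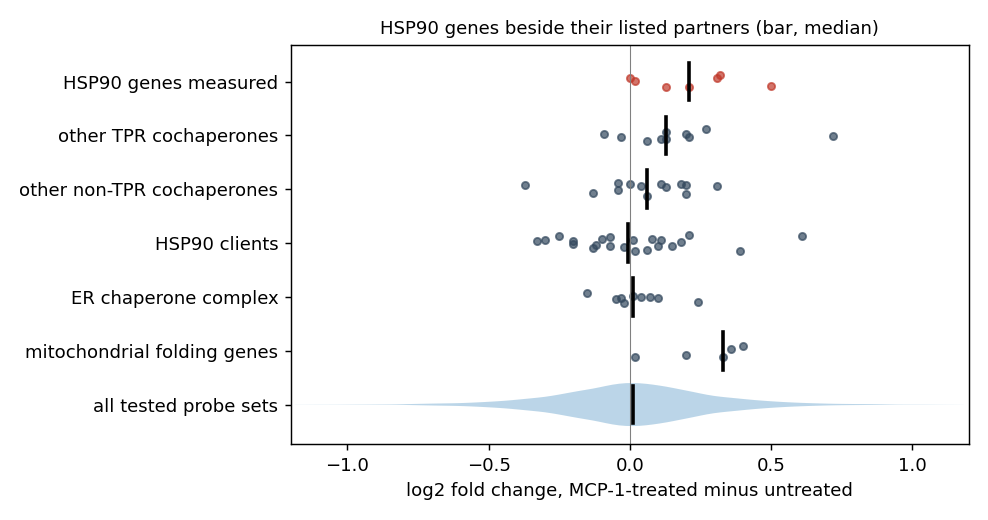
Log2 fold change of MCP-1-treated over untreated cells (horizontal axis) for the 7 measured HSP90 genes (red), 5 lists of partner genes (dark points, 1 per gene) and all tested probe sets (shape, within 1.2 of 0), with bars for medians. The medians are 0.21 for the HSP90 genes, 0.13 and 0.06 for other cochaperones with and without TPR, -0.01 for clients, 0.01 for the ER complex, 0.33 for mitochondrial folding genes and 0.01 for all probe sets.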

How the data were processed

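Total RNA of untreated and MCP-1-treated 786-O cells was hybridized to Clariom S arrays, 2 per group. The authors deposited log2 signals, 1 value per probe set and array, which they had made in Affymetrix Expression Console 1.4 with Signal Space Transformation followed by RMA, a robust average over probes and arrays. Background correction and normalization are already in the values and were not redone. These steps can compress differences between arrays. The build behind the probe sets is not given in the sources used here.

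The table has 24351 probe sets. After removal of 2903 controls, 21448 were tested, and 3739 of these have no gene listed. The 612 negative control probe sets gave the background level. The number of arrays limits the precision. Treated and untreated cells were compared with limma 3.58.1 (R 4.3.3). The model had terms for treatment and for the replicate number, because the methods use a paired test. Adjusted p-values are Benjamini-Hochberg values over all tested probe sets. Intervals are 95% intervals from the moderated variance. The fit was tested on simulated data. The members and partner lists were chosen with earlier results of these data known. Named genes are all measured members, the 3 largest changes of each partner list (4 where tied) and HSPA5, HSPA9, PPID and HSF1; FKBP5 was not analysed here. The alternatives comprised a fit with no replicate block, removal of dim probe sets, other normalizations, another variance prior and 1 probe set per gene. Further ones left out each array, then also with no replicate block, or each pair, or used the methods' t-test. Figures used Python 3.11.15 and matplotlib 3.10.9.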

Additional observations from a re-analysis of the deposited data

How the results depend on the processing

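No HSP90 gene and no listed partner gene passed the adjusted threshold under any alternative run on all 4 arrays. The log2 fold changes of FKBP4, HSP90AB1 and CHORDC1 stayed above 0 in every alternative. They ran from 0.27 to 0.38, 0.11 to 0.31 and 0.33 to 0.66 when single arrays were left out. For these genes both treated arrays lay above both untreated ones, so leaving out an array or a pair could not change the sign. At an unadjusted p under 0.05 and a fold of at least 1.5, 0 members passed with all 4 arrays. The log2 fold change of CHORDC1 was 0.66 without MCP-1-treated replicate 1, and that of STIP1 was 0.60 without MCP-1-treated replicate 2. The count over all probe sets, 7, was 0 without the replicate block, 0 on centred and 0 on quantile-normalized arrays. It was 51 and 49 without probe sets below the median and below background, and 69 with a variance prior that follows the signal. The methods' t-test, an alternative added for this count after the data had been seen, gave 4. Its smallest adjusted p was 0, which with 2 pairs needs equal differences in both, so its count is not comparable with those of limma. Fits with an array left out also had no replicate block, and only their effect sizes are given. Nothing shows that arrays of one number belong together (deviations from the group means correlated at -0.0466 between arrays of the same number), and without the replicate block the adjusted p of all 7 genes was again 1. HSP90AA1 reversed to -0.18 without MCP-1-treated replicate 1 and to -0.13 in replicate pair 2 alone. With single arrays left out HSP90AA1 ran from -0.18 to 0.43, PTGES3 from -0.10 to 0.14 and TRAP1 from -0.17 to 0.16. PTGES3 reversed to -0.09 without untreated replicate 1, to -0.10 when the first treated array was left out, and to -0.21 in pair 2, and STIP1 to -0.0014 in pair 2. TRAP1, at -0.0030, went to 0.01 with quantile normalization, 0.16 without untreated replicate 1, 0.08 when the first treated array was left out, and 0.24 in pair 2. The cause was not tested. No member has a second named probe set, so the choice between rows could not be varied. Probe sets with no gene listed were not searched for members.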
